A study of Mus musculus with 8 samples.

Results

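In the third of 3 anti-OTX2 ChIP-seq experiments on mouse subpallium, most of the called peaks had a low rank and no counterpart in any other library, and these peaks are described here. The members were chosen by rank and overlap. A member is a peak of the replicate 3 list that lies outside the best-ranked 10% of that list and shares no base with any peak of OTX2 replicate 1 or 2 or of any input or IgG list. This rule took 19545 of the 22325 peaks of replicate 3, out of 26317 peaks in all 8 lists. Of all replicate 3 peaks of any rank, 91.1% shared no base with another list, and the count of members is a description with no test. The rank limit by itself takes 90% of the list, and OTX2 replicates 1 and 2 held only 1848 and 1298 peaks. With lists of these lengths, a high share without a counterpart was largely set in advance.

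Chromatin was taken from wild-type CD-1 embryos at stage E12.5, and septum and basal ganglia tissue of several embryos was pooled for each. There were 3 OTX2 libraries, 3 input libraries (sheared chromatin with no antibody) and 2 goat IgG libraries, with no IgG in the third experiment. No mutant or treated group was included, so the comparisons are between libraries and between positions in the genome. Replicate 1 of OTX2 had 1848 peaks and replicate 2 had 1298, against 22325 in replicate 3. Input libraries had 138 to 235 and IgG libraries 149 to 182. Read depth is unknown. The track names of the third experiment (OTX2 and input) differ in form from the other 6, and what settings stood behind them was not given in the sources used here. OTX2 replicate 3 is therefore the only OTX2 list of that form, and depth, calling settings and experiment cannot be told apart beside its length. The input list of the same experiment and form had 235 peaks, against 138 and 142 in the other input lists.

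OTX2 is a DNA-binding protein of the homeodomain class that is needed early in development to form the anterior head, and it is later present in parts of the forebrain and midbrain. The subpallium holds the medial and lateral ganglionic eminences, which produce cortical interneurons and the neurons of the basal ganglia, and the septum lies at its rostral midline. Transcription factors of this kind often bind at several separate elements around the same genes, such as a promoter and distal enhancers. ChIP-seq reads from a pool of cells register strong, common binding before weak or rare binding, and the lowest-ranked peaks of a list usually hold more false calls. Rank and position were the only properties of a peak in the files, and how far these members stand for binding was not tested.

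Every low-ranked peak of replicate 3 was accounted for. Of 20093 peaks outside the best-ranked 10%, 530 shared a base with a replicate 1 or 2 peak and 36 with an input or IgG peak, 18 of them with both. The remaining 19545 were the members, and all but 6 of them lay on chromosomes 1 to 19 and X. Members made up 86.1% of the second 10% of the list, 94.9% of the third and 99.96% of the last. The peak just inside the limit lay on chromosome 4 from 6904995 to 6907992 (mm9), was 2998 bp wide and had a shared region 31.9 kb away. Just outside it were a peak on chromosome 2 from 34848279 to 34850038, 1760 bp wide, which lay in a shared region, and a peak on chromosome 8 from 10924323 to 10926472, 2150 bp wide, which lay 1.26 kb from one.

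Members were shorter than the better-ranked peaks of the same list. Their median width was 790 bp (interquartile range 650 to 979 bp, from 303 to 10236 bp), and together they covered 17.5 Mb. Well-ranked peaks that were also found only in replicate 3 had a median of 1207 bp, and replicate 3 peaks inside shared regions one of 1372 bp. The shared regions themselves had a median of 1372 bp too. Beside the other lists, however, members were wide. The whole replicate 3 list had a median of 827 bp, against 191 and 182 bp in OTX2 replicates 1 and 2. Input and IgG lists had medians from 143 bp (input replicate 3) to 159 bp, and the source of this difference was not tested. Median width fell from 1094 bp in the second 10% of the list to 572 bp in the last, with a Spearman correlation between rank and width of -0.68 across the 19545 members. These peaks come from 1 library and are not independent replicates.

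The first question was whether members lay nearer to sites that more than 1 OTX2 library had found. Shared regions were chains of overlapping peaks from at least 2 OTX2 libraries with no input or IgG peak, and there were 1949 of them. The reference was uniform placement: for each member, the share of all positions on its own chromosome, free of peaks of the other lists and of shared regions, that lay within a given gap of a region. This share was computed exactly from interval lengths. Members are peaks of 1 library and not replicates, so no p-value is given. Intervals are exact 95% binomial intervals that treat peaks as independent and cover counting error only. Members lay closer to one another than uniform placement gives (below), so these intervals are likely too narrow. Whether intervals overlap is a description and not a test, and intervals for different features rest on the same members.

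Low-ranked members lay closer to shared regions than uniform placement gives. Of 19539 members, 2984 (15.3%, 14.8 to 15.8%) had a shared region within 50 kb, against 6.94% for uniform placement, a ratio of 2.20. Among all replicate 3 peaks of any rank outside the regions the share was 15.5%, and most of those peaks were the members themselves. The median gap from a member to the nearest region was 335.6 kb (interval 327.3 to 345.1 kb) against 621.7 kb for uniform placement. The lower and upper quartiles of the gap were 103 kb and 855.5 kb. Most members were thus far from any shared region in absolute terms, and 7667 of them (39.2%) lay beyond 500 kb, against 56.4% for uniform placement.

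The excess was graded with distance. At a gap of up to 10 kb the observed share was 2.57 times that of uniform placement (769 members, 3.94% against 1.53%). It was 2.23 times between 10 and 25 kb, 2.01 times between 25 and 50 kb and 1.60 times between 50 and 100 kb. From 100 to 250 kb the ratio was 1.29 and from 250 to 500 kb it was 1.07. No member lay within 1 kb of a region, where uniform placement gave 0.16%. None of the 8 lists held neighbouring peaks less than 1000 bp apart. Nearly all regions (1944 of 1949) contained a replicate 3 peak, so this spacing within the replicate 3 list largely barred members from the first kilobase. Between lists such gaps did occur, with 10 members within 1 kb of a peak found only in replicate 1.

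**Figure D1:**
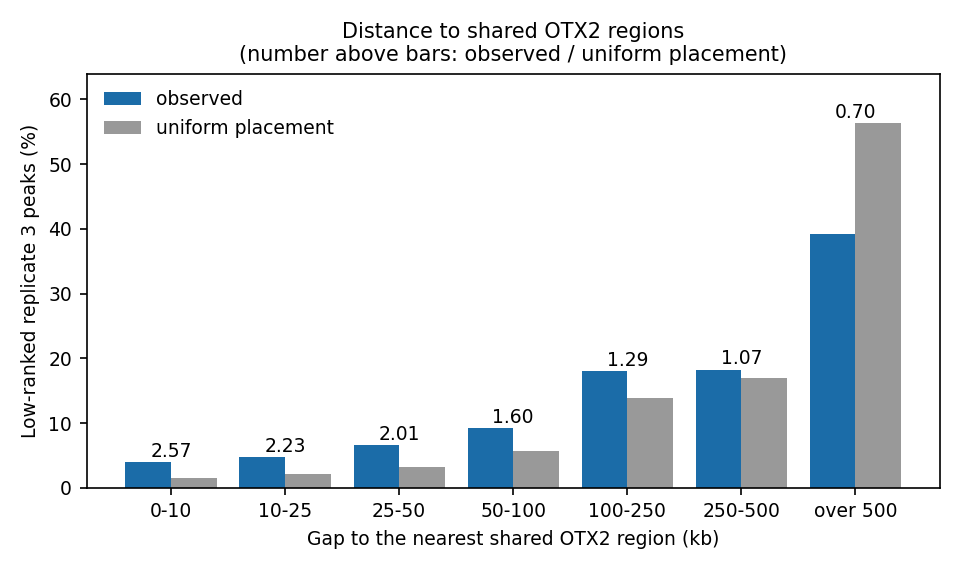
Share of low-ranked replicate 3 peaks (vertical axis, %) by gap to the nearest shared OTX2 region (horizontal axis, kb), with observed shares in blue and exact uniform placement in grey. The observed share is 2.57 times the reference in the nearest distance class, 1.07 times at 250 to 500 kb and 0.70 times beyond 500 kb.

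The excess was smaller against a local reference. When placement was confined to the 5 Mb bin that held the member, the reference rose to 8.42% and the ratio was 1.81. Within the same 1 Mb bin the reference was 10.6% and the ratio was 1.44, and the reference median gap was 383.9 kb against the 335.6 kb observed. Members and regions were dense in the same bins: across 2577 bins of 1 Mb their numbers had a Spearman correlation of 0.50, and of 0.46 over bins with at least 1 member. Bins share the mappability of the assembly and the depth of the library, so this is a description. The 1491 bins without a region held 5.24 members on average, the 639 bins with 1 region 9.25, the 229 bins with 2 regions 10.97 and the 218 bins with 3 or more 15.2.

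Nearly all of the shared regions (1944 of 1949) contained a replicate 3 peak, so regions and members share a library. Regions built from replicates 1 and 2 alone were defined without replicate 3. There were 759 of these, and 1345 members (6.88%, 6.53 to 7.25%) lay within 50 kb of one against 2.86% for uniform placement, a ratio of 2.41. Within the same 1 Mb bin that ratio was 1.46. Because so few shared regions lacked a replicate 3 peak, nearly all of these 759 coincided with one too. This comparison therefore cannot tell nearness apart from the shared library. Regions found in all 3 libraries had 7.30% of members within 50 kb, 2.45 times the reference of 2.99%, and regions found in exactly 2 libraries had 9.41%, 2.14 times the reference of 4.40%. The interval of the first ratio was 2.32 to 2.57 and that of the second 2.05 to 2.24.

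Other features had members around them to different degrees. Well-ranked peaks found only in replicate 3 (790 peaks) had 6.22% of members within 50 kb, 2.04 times the reference of 3.05%. The 180 peaks found only in replicate 1 had 1.10% within 50 kb, 1.53 times the reference (interval 1.33 to 1.75). For the 67 peaks found only in replicate 2 the ratio was 1.18 (0.89 to 1.52), and its interval included 1. For the 632 merged input and IgG intervals it was 1.16 (1.06 to 1.27), with 2.40% of members against 2.08%. The background in the control libraries thus had a small excess of members around it, and its ratio interval did not reach that of the shared regions (2.13 to 2.28). All these ratios are against placement on the whole chromosome. Placement in the same 1 Mb bin, which gave 1.44 for the shared regions, was not run for control intervals or for peaks found in 1 replicate only. The part of local density in this contrast was therefore not tested. Within 1 kb of a peak found only in replicate 1 lay 10 members, 3.52 times uniform placement (interval 1.69 to 6.47). Within 1 kb of a peak found only in replicate 2 lay 4 members, a ratio of 4.03 (1.10 to 10.3). For control intervals 12 members lay within 1 kb, a ratio of 1.35 (0.70 to 2.36).

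**Figure D2:**
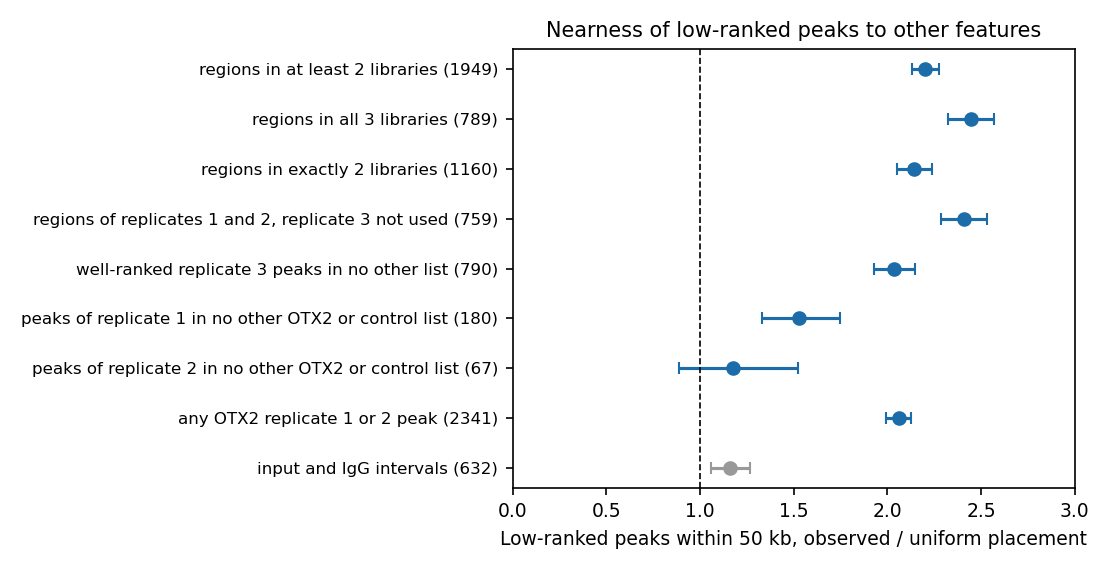
Share of low-ranked replicate 3 peaks within 50 kb of 9 kinds of feature, divided by uniform placement (horizontal axis, ratio), with exact 95% intervals and the number of features in brackets. The dashed line marks a ratio of 1. Regions of all 3 libraries lie at 2.45 and input and IgG intervals at 1.16.

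The same measure was taken in the other peak sets. Well-ranked peaks found only in replicate 3 lay within 50 kb of a shared region in 21.9% of cases (19.06 to 24.95%, 173 of 790), 3.14 times uniform placement. The interval of their ratio, 2.73 to 3.57, lay above that of the members, 2.13 to 2.28. Peaks found only in replicate 1 gave 12.8% (8.28 to 18.6%, 23 of 180) and a ratio of 1.83, and peaks found only in replicate 2 gave 13.4% (6.33 to 24.0%, 9 of 67) and a ratio of 1.99. The interval of the ratio was 1.19 to 2.66 for replicate 1 and 0.94 to 3.54 for replicate 2, so both included the ratio of the members and the second also included 1. Input peaks gave ratios of 1.21, 0.92 and 1.42 for replicates 1, 2 and 3, and IgG peaks 1.04 and 1.49 for replicates 1 and 2. The interval of each of the 5 control lists included 1, and each rested on between 9 and 22 peaks near a region, so a small excess was not detectable at these numbers. Input replicate 3, from the same experiment as the members, had 9.44% of 233 peaks near a region (6.01 to 14.0%), below the 15.3% of members. Placement in local bins was run for the members and not for the other sets, so the part of local density in these differences was not tested.

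**Figure D3:**
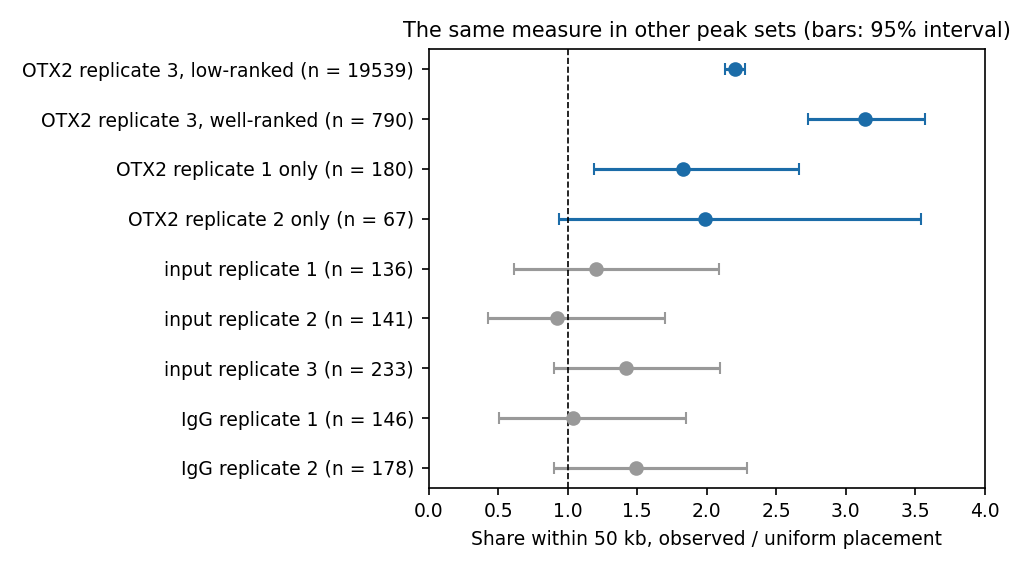
Share of peaks within 50 kb of a shared OTX2 region divided by uniform placement (horizontal axis, ratio) for 4 OTX2 peak sets in blue and 5 control lists in grey, with exact 95% intervals. Low-ranked replicate 3 peaks lie at 2.20 and well-ranked ones at 3.14, and the intervals of all 5 control lists and of peaks found only in replicate 2 cross the dashed line at 1.

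Among members, nearness fell with rank. Of members in the second 10% of the list, 19.9% (18.2 to 21.8%) had a shared region within 50 kb. The share was 17.95% in the third 10% and 16.7% in the fourth. From the fifth to the ninth it lay between 13.8% and 14.8% without a steady order, and in the last it was 12.1% (10.8 to 13.5%). Uniform placement gave between 6.88% and 6.98% in every group, so the ratio fell from 2.86 to 1.74. The lowest-ranked members therefore still had a share above the reference. Against the regions of replicates 1 and 2 alone the ratio was 3.25 in the second 10% and 1.76 in the last. Against all shared regions, with placement in the same 1 Mb bin, the ratio was 1.64 in the second 10% and 1.21 in the last.

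Width moved with nearness as well as rank. The narrowest 25% of members, from 303 to 650 bp, had 12.8% (11.8 to 13.7%) within 50 kb of a region, and the widest 25%, from 980 bp up, had 19.3% (18.2 to 20.4%). In 7 of the 9 rank groups the members above the group's median width had the higher share. In the second 10% of the list these shares were 22.7% for wider and 17.1% for narrower members. The exceptions were the eighth and the last group, with 14.5% against 14.8% and 11.9% against 12.3%. Rank and width follow each other in this list, and their separate parts in the nearness were not tested.

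**Figure D4:**
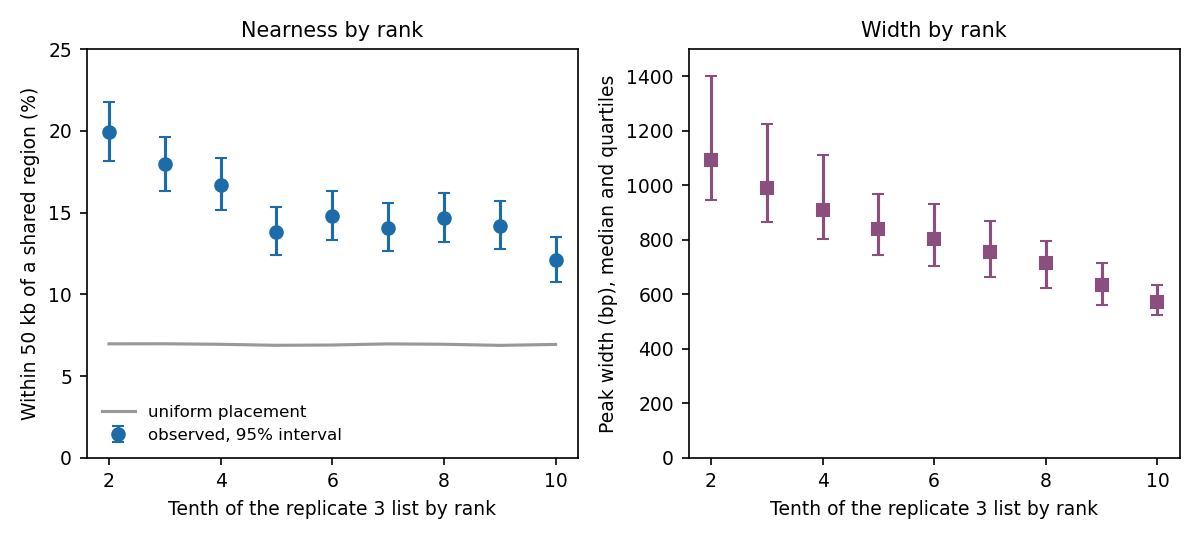
Left, share of low-ranked replicate 3 peaks within 50 kb of a shared region (vertical axis, %) in each 10% group of the list by rank (horizontal axis), with exact 95% intervals and uniform placement as a grey line. Right, peak width in bp, with the median as a square and bars to the quartiles. The share falls from 19.9% to 12.1% and the median width from 1094 to 572 bp.

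The excess was present on every chromosome. On all 20 chromosomes the observed share within 50 kb exceeded uniform placement, and the interval of the share lay above the reference on all 20. The ratio had a median of 2.28 over chromosomes. It was lowest on chromosome 18, with 1.65 (13.7% against 8.32%), and on chromosome 10, with 1.65 (9.54% against 5.78%). Chromosome 7 had the highest ratio of the autosomes, 2.83 (14.2% against 5.01%). On chromosome X the ratio was 4.02, from 20 of 333 members (6.01%, 3.71 to 9.12%) against 1.50%.

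Members were sparse on chromosome X. Autosomes carried between 6.86 members per Mb (chromosome 15) and 10.2 (chromosome 11), with a median of 7.78, and chromosome 19 had 10.1. Chromosome X carried 2.07 per Mb, 0.258 times the density of the autosomes together (interval 0.231 to 0.288). The ratio for well-ranked peaks found only in replicate 3 was 0.230 (0.118 to 0.404, from 12 X peaks), and for shared regions it was 0.194 (0.125 to 0.287). In the last 10% of the list it was 0.230 (0.159 to 0.323). The labels do not give the sex of the pooled embryos, and the part of X copy number or mappability in this difference was not tested.

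**Figure D5:**
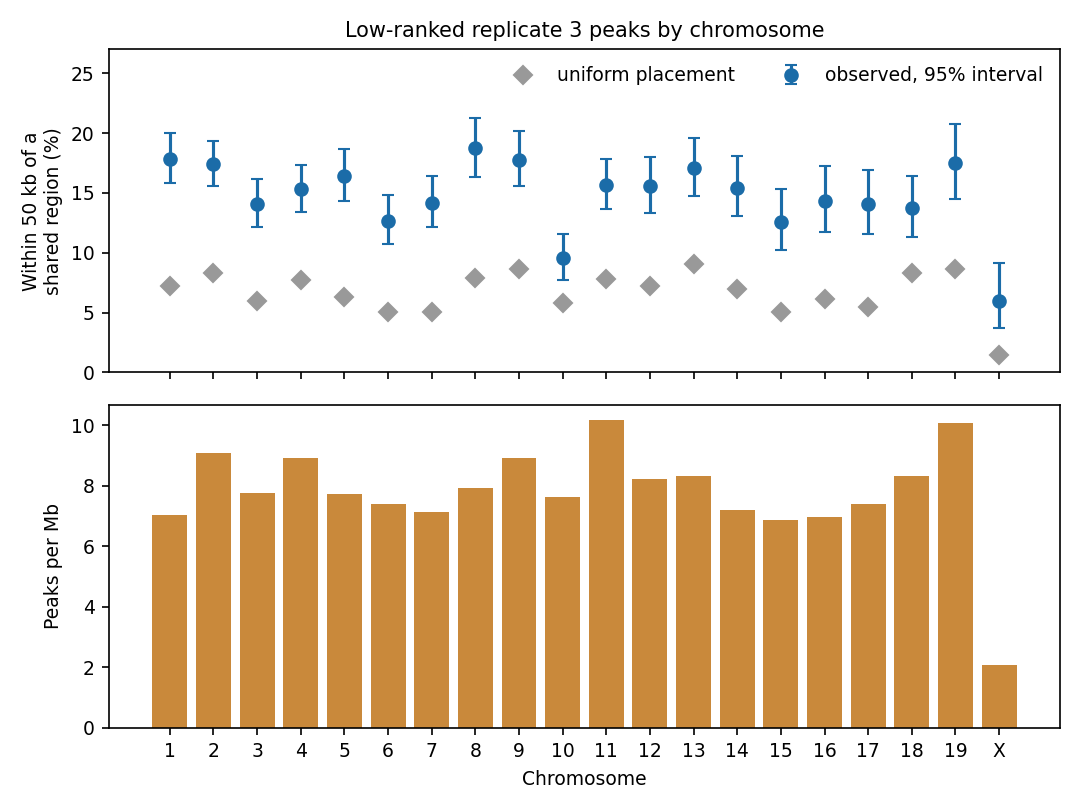
Low-ranked replicate 3 peaks by chromosome: above, the share within 50 kb of a shared region (%) with exact 95% intervals in blue and uniform placement as grey diamonds; below, peaks per Mb of chromosome extent. The observed share lies above the reference on all 20 chromosomes, and chromosome X has 2.07 peaks per Mb.

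Seen from the regions, 1501 of the 1949 shared regions (77.0%) had at least 1 member within 50 kb. No member was near 448 of them, 537 had 1 and 541 had 3 or more. Uniform placement was not computed for this share or these counts, so they do not show an excess by themselves. The mean was 1.88 members per region against 0.798 for uniform placement. Regions of all 3 libraries had 2.06 on average, and regions of exactly 2 libraries 1.76. Regions whose own replicate 3 peak was in the best-ranked 10% had 1.93, and those with a lower-ranked replicate 3 peak had 1.76. Nearby regions can share members, so these means count some members more than once.

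The region with the most members lay on chromosome 8 from 123032715 to 123033853 (mm9), where uniform placement gave 0.761. It had 10 members within 50 kb and was ranked 194, 506 and 427 in replicates 1, 2 and 3. Regions from 123044320 to 123045695 and from 123055946 to 123057254, close to it, had 9 each, with the same best and lowest member ranks of 3551 and 20064. A further region on that chromosome, from 122858502 to 122860489 and found in all 3 libraries, had 9 members. On chromosome 7 a region from 86693198 to 86694998, ranked 45, 22 and 79, and its neighbour from 86679227 to 86681962 had 9 each. On chromosome 4 a region from 153956495 to 153957665, ranked 322, 293 and 256, had 9 members, and one from 153973672 to 153974853 had 8. A region on chromosome 1 from 170175005 to 170176400, seen in replicates 1 and 3, had 9, and one on chromosome 2 from 101842705 to 101844724 had 8. These 10 regions fell into 6 groups that shared no member. The 3 neighbours on chromosome 8 had 11 different members, 8 of them within 50 kb of every one of the 3 regions. The pair on chromosome 7 had the same 9 members, and the pair on chromosome 4 shared 8 of 9. At each of the 10 the members ran from better ranks to far down the list.

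Single members illustrate the range. The 5 best-ranked members lay between 12.9 kb and 1070 kb from a shared region. The nearest of them was on chromosome 11 from 80317161 to 80318592, and the farthest on chromosome 2 from 162238575 to 162240086. The 5 lowest-ranked members lay between 103.2 and 898.7 kb from one. The last peak of the list, on chromosome 2 from 157606510 to 157607052, was 543 bp wide and 237.6 kb from a region of all 3 libraries. The widest member, 10236 bp on chromosome 12 from 50493969 to 50504204, was 541.9 kb from a region, and the second widest, 7251 bp on chromosome 8 from 12388178 to 12395428, was 2.31 kb from one. Of the 5 widest, 2 had a region within 50 kb.

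Some members lay just beside regions found in all 3 libraries. Among members in the second 10% of the list, the nearest to a region of all 3 libraries lay on chromosome 18 from 55292476 to 55294516, at a gap of 1.07 kb from a region ranked 160, 79 and 289. On chromosome 5 a member from 4869873 to 4870826 lay 1.08 kb from a region ranked 492, 136 and 357. On chromosome 16 a member from 91304373 to 91306433 lay 1.29 kb from a region ranked 786, 795 and 1744. On chromosomes 12 and 9 the gaps were 1.78 and 1.94 kb. These gaps are close to the 1000 bp minimum between neighbouring peaks, and whether such a pair is 1 broad site or 2 cannot be told apart from the peak lists.

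Members also lay close to one another. Of all members, 67.7% (67.0 to 68.3%) had the centre of another member within 50 kb, against 54.7% for independent uniform placement (ratio 1.24). Within 10 kb the share was 23.4% against 14.8% (ratio 1.59). Members within 50 kb of a shared region had another member within 50 kb in 83.6% of cases, those between 50 and 500 kb away in 70.2%, and those beyond 500 kb in 58.6%. Spacing was not compared with placement in local bins, and these groups had no reference of their own. Bins with more regions also held more members, and the part of local density in this order was not tested. Members within 50 kb of a region had a median width of 830 bp, and those beyond 500 kb one of 775 bp.

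Of all 1 Mb bins, the one with the most members was 132000001 to 133000000 on chromosome 5, with 41 members and 5 shared regions against a median of 7 members over all bins. A bin on chromosome 11 from 88000001 held 36 members and 4 regions, and another on chromosome 5 from 112000001 held 34 members and 8 regions. Bins on chromosome 7 from 122000001 and on chromosome 9 from 61000001 held 31 members each, with 4 and 6 regions. All 5 of these bins, picked by their member count, contained shared regions, and 57.9% of the 2577 bins contained no region. In 239 bins there was no member. No genome or annotation of mm9 was used here, so sequences, motifs and neighbouring genes of the members were not analysed.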

How the data were processed

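The data were peak positions from 8 ChIP-seq libraries, deposited by the authors as 1 BED list per library with mm9 coordinates and an order (rank), with no height, score or p-value. BWA, MACS 1.4 and mm9 are named in the submitters' processing notes. Which parameters, controls and thresholds applied was not given in the sources used here. Groups came from sample titles. Positions are printed 1-based. Peaks sharing at least 1 bp overlapped. The reference for nearness was the exact share of admissible positions between the lowest and highest position of the chromosome in any list. It was tested on simulated data, and used Python 3.11.15, numpy 2.4.6 and scipy 1.17.1. Named members and regions were the 5 best-ranked, lowest-ranked and widest members, the 5 of the second 10% nearest to a region of all 3 libraries (3 in full), the 10 regions with most members and the 5 densest bins. The members and lists were chosen with earlier results of these data known. Sequence and gene analyses were planned and left out, because no mm9 genome was used here. Separate litters for the 3 experiments are not stated in the labels.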

Additional observations from a re-analysis of the deposited data

How the results depend on the processing

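The share of members within 50 kb exceeded uniform placement under every alternative run. The median gap stayed below it in the 8 alternatives run for it, which did not include other rank limits. With regions defined without 1 OTX2 library in turn, the ratio of shares was 2.27 to 2.41 and the ratio of median gaps 0.554 to 0.638 (0.540 with all libraries). Regions of all 3 libraries gave 2.45 and 0.621. Other gaps gave 2.57 (10 kb), 2.37 (25 kb), 1.93 (100 kb) and 1.60 (250 kb). Placement only in 1 Mb bins with a replicate 3 peak gave 2.05 for shares and 0.600 for median gaps, in the same 5 Mb bin 1.81 and 0.683, and in the same 1 Mb bin 1.44 and 0.874. The last of these moved both ratios (2.20 and 0.540) by over 1.5 times. Members from the sixth 10% of the list onward gave 2.02. Chosen after seeing the data, regions of replicates 1 and 2 gave 1.93 in the same 5 Mb bin and 1.46 in the same 1 Mb bin, and keeping the smallest gap gave 2.25. The spacing ratio of 1.24 became 1.59 within 10 kb, 1.44 within 25 kb and 1.08 within 100 kb. The number of members was between 19519 and 19563 under other overlap rules, and the X ratio between 0.258 and 0.276. Peak lists without depth or scores do not show how many members a deeper replicate 1 or 2 would share. No paired analysis was possible because the members come from 1 library and no result comes from a test between groups.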

Other observations

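Some 1 Mb bins without a shared region also held many low-ranked replicate 3 peaks, though such bins mostly held fewer. The 1 Mb bins without a shared region held 7806 members (40.0% of members in 57.9% of bins). Their median was 4 members, against 7 over all bins. The bins named here were chosen after their values were seen. On chromosome 5 the bin from 111000001 to 112000000 held 27 members, with the nearest region 89.2 kb away. It lay next to the bin with 34 members and 8 regions. On chromosome 13 the bin from 23000001 held 26 members, with the nearest region 334 kb away. On chromosome 10 the bin from 80000001 held 23 members, with the nearest region 3120 kb away. The member farthest from any region lay on chromosome X from 127478876 to 127479507, at a gap of 31.0 Mb.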
